A study of Sus scrofa domesticus with 4 samples.

Results

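Steroid hormone receptors and a short progesterone-driven relay, from the epithelial ligand IHH to the stromal receptor NR2F2, were followed in porcine endometrium exposed to orexin B. The set was chosen by name: PGR, ESR1, ESR2, NR3C1, PGRMC1, IHH, NR2F2 and FKBP5, with every non-control probe whose accession maps to one of these symbols through RefSeq. This gave 17 of the 43603 probes of the array, for 7 of the 8 genes, and no probe mapped to FKBP5, a chaperone of steroid receptors that glucocorticoids and progesterone induce, so it was dropped. Of the 17 probes, 9 (of 6 genes) were among the 13783 tested probes, a probe being tested where its treated signals, or its untreated ones, were well above background on every array. Over the whole array 3029 genes could be named this way and 1637 of them were tested.

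Each of 4 two-colour Agilent arrays set endometrial explants exposed for 24 h to 10 nM orexin B, a neuropeptide of the hypothalamus, against untreated explants kept as long. Both groups came from the uterine horns of 4 Large White x Polish Landrace gilts aged 7 to 8 months, on days 15 to 16 of gestation, and both spent 2 h in medium before the treatment began. Which gilt supplied which array is not given in the labels, so p-values measure the spread between arrays, some of which may be technical. Explants are pieces of whole tissue in which epithelium, stroma, vessels and leukocytes stay together, and an array reads their mixed RNA.

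Progesterone acts through PGR, a nuclear receptor and transcription factor, and keeps the uterus in the state that lets the conceptus attach. In the mouse uterus, progesterone acting on PGR in the epithelium raises IHH, a secreted hedgehog ligand, which signals to the stroma and raises NR2F2 (COUP-TFII), a nuclear receptor needed there for implantation. In the pig, estrogen from the conceptus is the signal of pregnancy recognition and acts through ESR1 and ESR2, while epithelial PGR is lost before attachment and stromal PGR persists. NR3C1 is the glucocorticoid receptor, closely related to PGR, and PGRMC1 is a heme-binding membrane protein tied to rapid progesterone responses.

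Signal strength differed by dye and by array. Between 46.8% and 86.7% of non-control spots were well above background in Cy5, against 27.8% to 36.2% in Cy3. The dye labels swap from array to array: treated RNA carried Cy5 on arrays 1 and 3, and Cy3 on the other arrays. The authors' value table changes sign against Cy5 over Cy3 on the same arrays as the labels. A protocol text that does not differ between samples names only Cy5 for treated RNA, and values under that reading are given where they bear on a member. Under that reading dye and treatment cannot be told apart. The ratio of a probe with a value on every array is then its dye term. Array 2 was scanned on another day than the other arrays, so the value without array 2 is the value within one scan. After the ratios were turned to treated over untreated, arrays 1 and 3 correlated at 0.34 across tested probes, arrays 2 and 4 at -0.03, and arrays 1 and 2 at -0.38, where probes are not independent. Ratios below are log2 of treated over untreated after loess normalisation, and ± is the moderated standard error of a limma fit with a treatment and a dye term.

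No member passed the adjusted threshold of 0.05 in either direction. Over all probes that could be fitted, 0 of 13781 passed (0%), with a smallest limma adjusted p of 0.999, and 495 (3.59%) had an unadjusted p below the same threshold. Among the 9 member probes 1 did, the tested IHH probe, which stood lower (1.87% of all probes did so on the lower side). Of the 9 ratios, 7 lay above 0 and 2 below, against 46.9% below 0 over all probes. Of the 8 member probes with a value on every array, 0 had the same sign on 4 of 4 arrays, against 7.41% of all such probes.

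**Figure D1:**
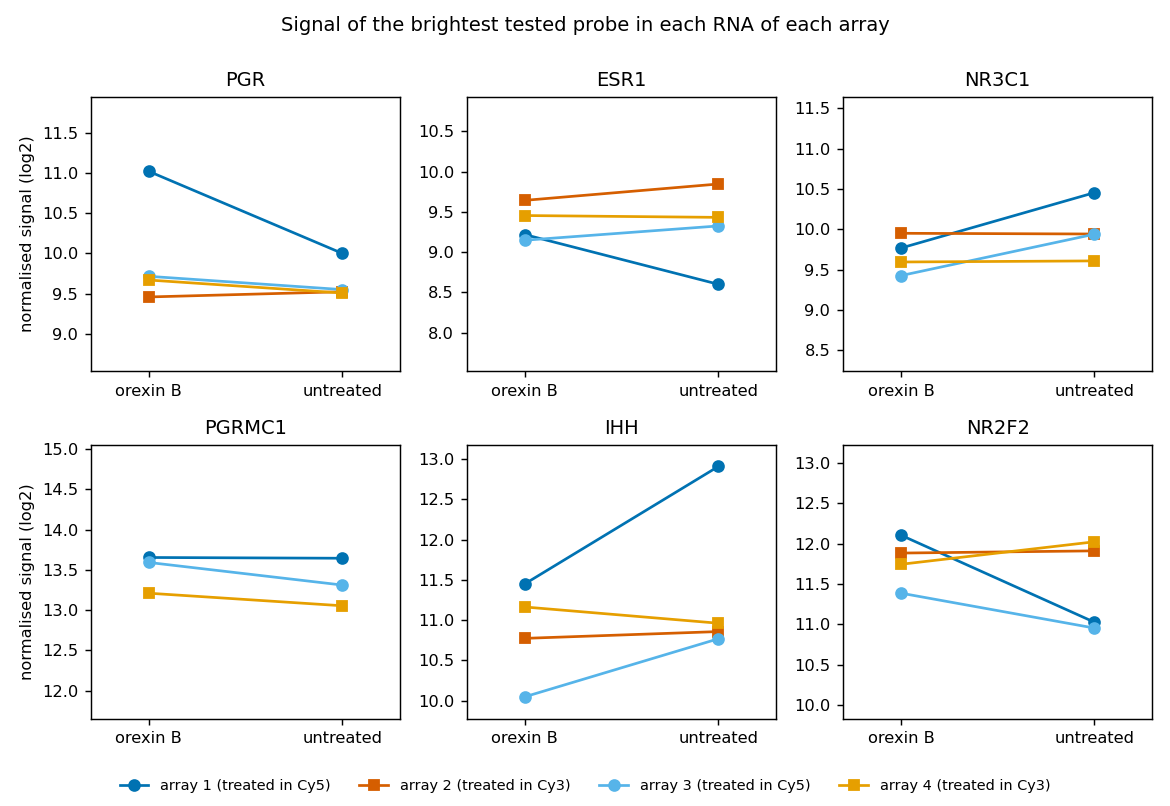
Normalised log2 signal (loess within arrays, then average signal quantile-normalised between arrays) of the brightest tested probe of 6 genes, in orexin B treated and untreated RNA of the same array, joined by a line; axes span the same range but start at different levels, and levels of different genes are not comparable. Only array 1 carries a wide gap for PGR, arrays 1 and 3 carry one for IHH in the opposite direction, and PGRMC1 has no value on array 2.

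IHH, the epithelial hedgehog ligand, had the ratio farthest from 0 among the members. Its tested probe had normalised log2 signals of 11.45, 10.77, 10.05 and 11.16 in treated RNA of arrays 1 to 4, against 12.91, 10.86, 10.77 and 10.96 in untreated RNA. The ratios were therefore -1.46, -0.08, -0.72 and 0.20. Arrays 1 and 3 carried the lower values, array 2 lay near 0 and array 4 had the opposite sign. The treated and untreated signals overlapped as groups. Here and for the genes below, such overlap does not bear on ratios taken within arrays. The fitted ratio was -0.51 ± 0.20 (n = 4 arrays; 95% interval -0.98 to -0.05), or 1.43 times lower, with an SD over arrays of 0.74. Its unadjusted limma p was 0.0353, which ranked 318th among the fitted probes, and its adjusted p was 0.999.

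The IHH ratio went with dye orientation. Its mean was -1.09 on the 2 arrays with treated RNA in Cy5 and 0.06 on the 2 with treated RNA in Cy3, and the dye term, -0.57, was as large as the treatment ratio. Read as treated in Cy5 throughout, the ratio of IHH is that same dye term, -0.57 (limma adjusted p = 0.337), and not a second estimate. Without array 1 the fitted IHH ratio was -0.33, and without array 2, that is, within one scan date, it was -0.44. With each array centred on its median in place of loess it was -0.17, which is -0.45 against all tested probes, whose median was then 0.28. The other 3 IHH probes were not tested: one was above background in 3 Cy5 channels and 1 Cy3 channel, and the remaining probes in 1 Cy5 channel each. On array 1, the only array where both channels of such a probe were above background, the second IHH probe stood at -0.64, the same sign as the tested one.

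Raw spot signals went with the dye. On array 1 the IHH spot read 6106 in treated RNA (Cy5) and 4094 in untreated RNA (Cy3). On array 3 it read 2279.5 and 1180 in the same order of RNA and dye, so the treated signal was the brighter one on both arrays. On arrays 2 and 4, with the dyes exchanged, the treated RNA (Cy3) read 1365 and 1933, against 1864 and 2687 for the untreated RNA (Cy5). Cy5 was thus the brighter channel of the IHH spot on all 4 arrays, whichever RNA it carried. The same held for NR2F2, ESR1 and the brightest probes of NR3C1 and PGRMC1, so it was not a trait of IHH. After normalisation the dye term of IHH was below 0, that is, its Cy5 signal was weak relative to other probes of like brightness.

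NR2F2, the stromal receptor at the far end of the relay, leaned the other way. Its single probe had normalised signals of 12.11, 11.88, 11.39 and 11.74 in treated RNA, against 11.02, 11.91, 10.95 and 12.02 in untreated RNA. The ratios were 1.08, -0.03, 0.43 and -0.28, so arrays 1 and 3 were higher, array 2 was near 0 and array 4 was lower, and the groups overlapped. The fit gave 0.30 ± 0.19 (n = 4 arrays; 95% interval -0.15 to 0.75; limma adjusted p = 0.999), an interval that holds 0. The SD over arrays, which still holds the dye difference, was 0.60. The dye term, 0.45, was larger than the treatment ratio, and the orientation means were 0.76 with treated RNA in Cy5 and -0.15 with treated RNA in Cy3. Without array 1 the ratio was 0.14, and without array 2 it was 0.24. With treated RNA read as Cy5 throughout, the NR2F2 ratio is the dye term itself, 0.45.

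PGR, the nuclear progesterone receptor that heads the relay, also rested on array 1. Normalised signals of its single probe were 11.02, 9.46, 9.72 and 9.67 in treated RNA, against 10.00, 9.53, 9.55 and 9.51 in untreated RNA. The ratio was 1.02 on array 1, and -0.06, 0.16 and 0.16 on arrays 2, 3 and 4, and the groups overlapped outside array 1. The fit gave 0.32 ± 0.21 (n = 4 arrays; 95% interval -0.16 to 0.80; limma adjusted p = 0.999), and without array 1 the ratio was 0.11. Median centring gave 0.61, or 0.33 against all tested probes, with an unadjusted limma p of 0.0422 and an adjusted p of 0.521. The interval holds 0 and reaches 0.80, so these arrays bound the PGR response only loosely.

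The estrogen receptors gave 1 measured ratio. ESR1, the receptor through which conceptus estrogen acts on the endometrium, had normalised signals of 9.22, 9.64, 9.15 and 9.45 in treated RNA at its tested probe, against 8.60, 9.85, 9.32 and 9.43 in untreated RNA. The ratios were 0.62, -0.20, -0.18 and 0.02, with array 1 above the others and the groups overlapping. The fit gave 0.06 ± 0.20 (n = 4 arrays; 95% interval -0.41 to 0.54; limma adjusted p = 0.999), and the sign turned without array 1 (-0.13) and in the authors' value table (-0.04). Its other 3 probes were above background in 3, 1 and 0 Cy5 channels and in 0 Cy3 channels. ESR2, the second estrogen receptor, has 1 probe on the array, which was well above background in 0 of the treated and 0 of the untreated channels, so no ratio is given for it.

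**Figure D2:**
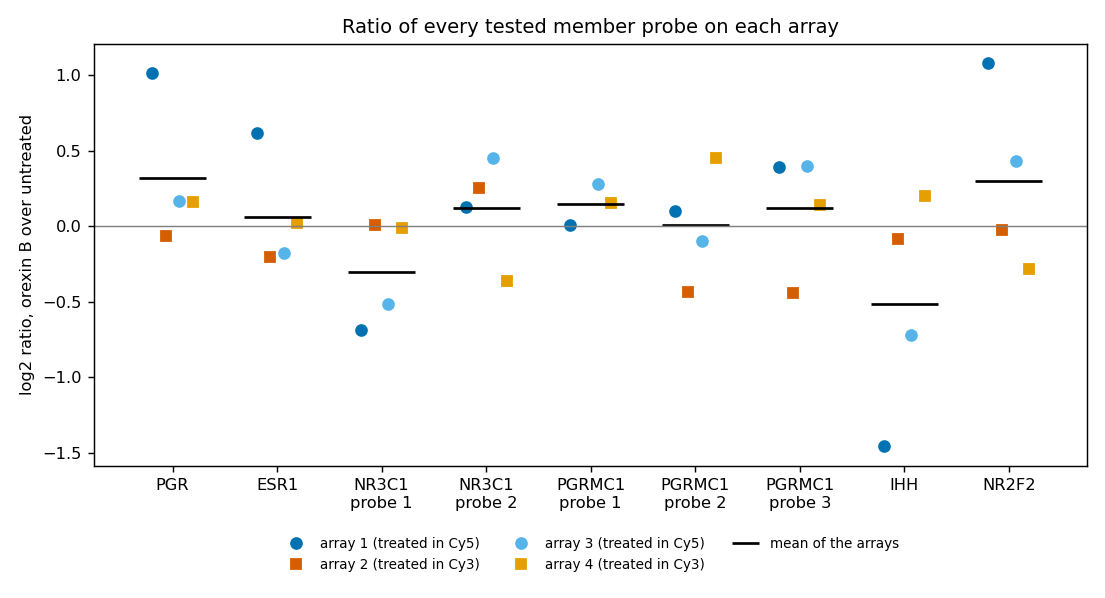
Log2 ratio of orexin B treated over untreated RNA for the 9 tested member probes on each array; circles mark arrays with treated RNA in Cy5, squares those with treated RNA in Cy3, and bars the mean over arrays. Array 1 lies farthest from 0 for PGR, ESR1, IHH and NR2F2, and the tested NR3C1 probes have means of opposite sign.

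NR3C1, the glucocorticoid receptor, was the member whose probes disagreed in sign. The brighter probe had normalised signals of 9.77, 9.95, 9.43 and 9.59 in treated RNA, against 10.45, 9.94, 9.94 and 9.61 in untreated RNA. Its ratios were -0.69, 0.01, -0.51 and -0.01, with arrays 1 and 3 lower and the others at 0. Its fitted ratio was -0.30 ± 0.17 (n = 4 arrays; 95% interval -0.70 to 0.10; limma adjusted p = 0.999), with a dye term of -0.30. The second tested probe had ratios of 0.13, 0.26, 0.45 and -0.36 and a fitted ratio of 0.12 ± 0.19 (95% interval -0.33 to 0.57). That probe was above background in treated RNA on 4 arrays and in untreated RNA on 3. On array 3 its untreated signal was not above background, so the 0.45 there does not rest on 2 measured signals. Array 1 was the only array where both probes were measured in both RNAs and lay clearly on opposite sides of 0. On array 4 the second probe stood at -0.36 and the brighter one at -0.01. With the mean of both probes the NR3C1 ratio was -0.09. Another probe was above background in 4 Cy5 channels and 0 Cy3 channels and was not tested.

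PGRMC1, the membrane-associated progesterone receptor component, stood near 0 by all 3 of its probes. The brightest probe had an outlier spot on array 2 and was fitted on 3 arrays. Its normalised signals on arrays 1, 3 and 4 were 13.65, 13.59 and 13.21 in treated RNA, against 13.64, 13.31 and 13.05 in untreated RNA, with ratios of 0.01, 0.28 and 0.16 and a fitted value of 0.15 ± 0.23. The second probe stood at 0.01 ± 0.21, from ratios of 0.10, -0.43, -0.10 and 0.45. The remaining probe stood at 0.12 ± 0.19, from 0.39, -0.44, 0.40 and 0.14. The fitted values share a sign, while on arrays 1 and 4 all 3 probes were above 0, on array 2 both measured probes were below 0, and on array 3 the second probe differed from the others. The 95% intervals of the 3 probes together ran from -0.48 to 0.70.

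**Figure D3:**
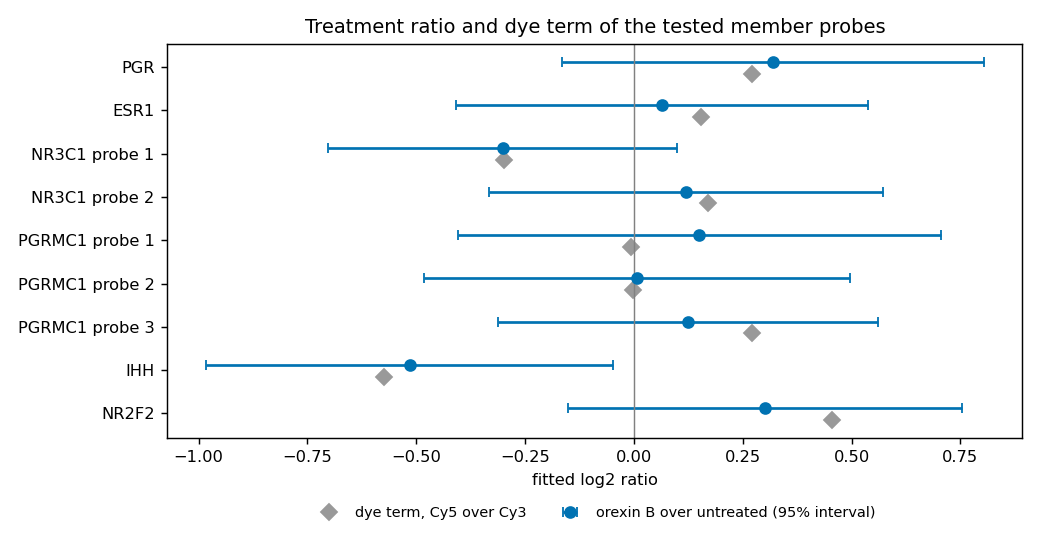
Fitted log2 ratio of orexin B treated over untreated RNA with its 95% interval (circles) and fitted dye term, Cy5 over Cy3 (diamonds), for the 9 tested member probes. The IHH interval alone excludes 0 before adjustment, and the dye terms of IHH (-0.57) and NR2F2 (0.45) are as far from 0 as their treatment ratios or farther.

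The dye term was larger in size than the treatment ratio for 5 of the 9 member probes, against 64.1% of all fitted probes. For 2 of them, IHH and NR2F2, the dye term had an unadjusted limma p below the threshold (0.0230 and 0.0491), against 14.1% of all probes, and 0 probes of the array passed for dye after adjustment.

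Set against each other array by array, the receptors and the relay separated most on array 1 and next on array 3, the arrays with treated RNA in Cy5. The median ratio of the 4 tested receptor genes (PGR, ESR1, NR3C1 and PGRMC1) was 0.31, -0.06, -0.01 and 0.09 on arrays 1 to 4, where array 2 lacks PGRMC1. It exceeded IHH by 1.77, 0.02, 0.71 and -0.11, a mean difference of 0.60 ± 0.86 (SD, n = 4 arrays). NR2F2 exceeded the receptor median by 0.77, 0.04, 0.44 and -0.37, a mean of 0.22 ± 0.49 (SD, n = 4 arrays). NR2F2 exceeded IHH by 2.54, 0.06 and 1.15 on arrays 1, 2 and 3 and lay below it by 0.48 on array 4 (difference -0.48). The mean difference between the relay's ends was 0.82 ± 1.33 (SD, n = 4 arrays), smaller than an SD that still holds the dye difference, and 0.47 without array 1. The relay's ligand and its stromal receptor thus had ratios of opposite sign on arrays 1, 3 and 4. On array 2 the 3 differences lay between 0.02 and 0.06. The separation went with dye orientation. With treated RNA in Cy5 the means were 0.76 for NR2F2 and -1.09 for IHH, against -0.15 and 0.06 with treated RNA in Cy3. Read as treated in Cy5 throughout, which returns the dye terms, NR2F2 exceeded IHH by 1.03.

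**Figure D4:**
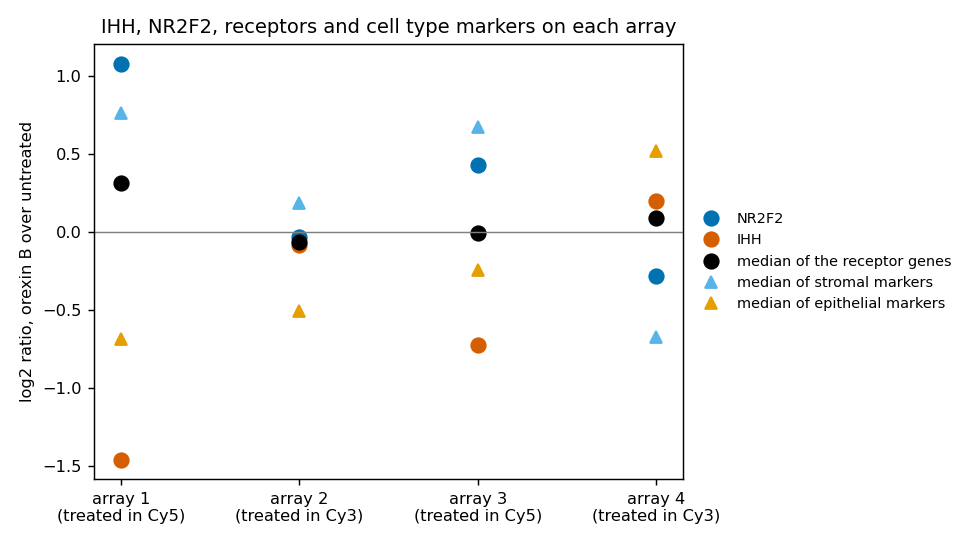
Log2 ratio of orexin B treated over untreated RNA on each array for NR2F2, IHH and the median of 4 receptor genes (circles), with the medians of 3 stromal and 6 epithelial marker genes (triangles). NR2F2 and the stromal markers lie above IHH and the epithelial markers on arrays 1 and 3, and below them on array 4. Treated RNA carried Cy5 on arrays 1 and 3 and Cy3 on the others.

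Markers of epithelium and stroma were read beside both ends of the relay. Of 10 epithelial markers 6 were on the array, all tested, of which 4 stood lower and 2 higher. Their median ratio was -0.19, and by array it was -0.69, -0.51, -0.24 and 0.52. The epithelial median turned to 0.13 without array 2, that is, within one scan date, and was -0.50 without array 4. With median centring it was 0.20 (-0.08 against all probes). Members of the list differed: the tight junction gene CLDN3 had ratios of -1.42, -0.28, -1.07 and 0.61, while the keratin gene KRT8 had 0.71, -0.65, 0.08 and 1.26. CLDN7, another tight junction gene, was above 0 on every array, at 0.67, 0.18, 0.19 and 0.20. CLDN4, EPCAM and CDH1 went with CLDN3, each below 0 on arrays 1 to 3 and above 0 on array 4. Their fitted ratios were -0.51, -0.26 and -0.12. The summed signal of the epithelial markers ranged from 53111 to 107133 in treated RNA and from 69112 to 139929 in untreated RNA. Of 9 stromal markers 4 were on the array and 3 were tested, DCN, LUM and COL1A2, all with a fitted ratio above 0 (median 0.20). By array the stromal median was 0.76, 0.19, 0.67 and -0.67. The stromal median was 0.0058 without array 2 (2 higher and 1 lower). Their summed signal ranged from 17055 to 42364 in treated RNA and from 15725 to 41255 in untreated RNA. All markers of both lists that are on the array were above background in at least 1 channel. By their medians alone, arrays 1 and 3 had lower epithelial and higher stromal marker ratios beside lower IHH and higher NR2F2, and array 4 had the reverse, while KRT8 and CLDN7 were higher on arrays 1 and 3. Arrays 1 and 3 carried treated RNA in Cy5 and array 4 in Cy3, so this parallel cannot be told apart from dye. Dye terms were -0.70 for CLDN3, -0.15 for CLDN4, -0.15 for EPCAM and -0.47 for CDH1, and 0.12 for CLDN7 and 0.05 for KRT8. They were 0.24, 0.40 and 0.73 for DCN, LUM and COL1A2. On array 2 the epithelial median was lower with IHH near 0. The part of tissue composition in the IHH and NR2F2 ratios was not tested, and fewer cells of a type cannot be told apart from less RNA per cell.

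Wider lists of the same pathways gave no call either. They hold members and overlap, so their counts are not independent of the members or of each other. Lists are described by counts and medians, beside a median of 0.02 over all tested probes. Of 31 hedgehog and stromal progesterone axis genes, 8 were on the array and 5 were tested, 3 higher and 2 lower (median 0.20; 4 higher and 1 lower with median centring, at -0.02 without array 1). Beside IHH and NR2F2 these were GATA2, a progesterone-linked transcription factor (0.34 ± 0.20), BMP2, a stromal growth factor of decidualisation (0.20 ± 0.21), and MSX1, an epithelial homeobox factor (-0.13 ± 0.25). No hedgehog receptor or GLI factor was among the tested genes, so the step between IHH and NR2F2 is not described here. MSX1 stood at -0.55, -0.42, -0.56 and 1.00 on arrays 1 to 4, and BMP2 at 1.13, -0.46, 0.25 and -0.11.

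Receptors and their co-factors had 15 tested genes of 27, 7 higher and 8 lower, with a median of -0.02 (14 higher and 1 lower with median centring, which moves the median of all probes to 0.28 and this list to -0.06 against it). The 15 genes count the members PGR, ESR1, NR3C1, PGRMC1 and NR2F2 again. Without array 2 the receptor list had 11 higher and 4 lower (median 0.15), and without array 1 it had 6 higher and 9 lower (median -0.07). HSP90AA1, the chaperone that holds steroid receptors ready for hormone, stood at -0.32 ± 0.21 with ratios of -0.84, 0.68, -0.83 and -0.27. FKBP4, the co-chaperone that aids PGR, stood at 0.34 ± 0.27. PGRMC2, the relative of PGRMC1, stood at -0.26 ± 0.19 beside a dye term of -0.71. HSPA8, a constitutive chaperone, was at 0.22 ± 0.17, with ratios between 0.13 and 0.40 on every array.

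Genes that respond to each hormone were read as lists in turn. Progesterone-responsive genes had 8 tested genes of 27, 2 higher and 6 lower (median -0.12; 6 higher and 2 lower with median centring, or -0.06 against all probes). Without array 1 or without array 2 the progesterone list had 4 higher and 4 lower, with medians of 0.03 and -0.01. Beside IHH these included SPP1, the osteopontin gene, at 0.77 ± 0.36 with ratios of 1.67, -0.56, 0.48 and 1.51, GPX3, a secreted peroxidase, at 0.20 ± 0.19, and STC1, a secreted glycoprotein, at -0.21 ± 0.24. Estrogen-responsive genes had 12 tested genes of 23, 6 higher and 6 lower (median -0.03; 10 higher and 2 lower with median centring, or -0.07 against all probes), with XBP1, a factor of the unfolded protein response, at -0.41 ± 0.21 and VEGFA, the vascular growth factor gene, at -0.30 ± 0.18. The estrogen list counts PGR and ESR1 again and shares SPP1 and STC1 with the progesterone list. Its array medians were 0.45, -0.45, -0.17 and 0.26, so its arrays split evenly. Without array 1 it had 4 higher and 8 lower (median -0.17), and without array 2 or array 3 it had 8 higher and 4 lower (medians 0.11 and 0.13).

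Glucocorticoid-responsive genes had 10 tested genes of 23, 8 lower and 2 higher, with a median of -0.15, where 46.9% of all fitted probes were below 0. The list was not tested as a set. Their array medians were -0.26, -0.16, -0.33 and -0.16. DDIT4, an inhibitor of mTOR signalling, stood at -0.73 ± 0.17 with ratios of -1.14, -0.14, -1.28 and -0.37. MT1A, a metallothionein whose family members are alike enough to share signal on a probe, stood at -0.48 ± 0.19 with ratios of -0.78, -0.05, -0.50 and -0.58. NFKBIA, the inhibitor of NF-kappaB, was at -0.38 ± 0.20 with ratios of -0.24, 0.03, -0.51 and -0.80. The smallest limma adjusted p in the list was 0.999, and 2 of the 10 had an unadjusted p below the threshold, against 3.59% of all fitted probes. With median centring 7 of the 10 were higher and the list's median was 0.09, which is -0.19 against all probes. With treated RNA read as Cy5 throughout 5 were higher and 5 lower, and the median was -0.08, or -0.03 against all probes. SGK1, a kinase that glucocorticoids induce, stood at 0.12 ± 0.18 and KLF15, a factor they also induce, at 0.05 ± 0.18, with 95% intervals of -0.30 to 0.55 and -0.36 to 0.47.

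The genes nearest to each member in their 4 ratios were sought among 1603 other named genes with a value on every array, by Euclidean distance in log2 units. For IHH these were LACTB (0.32) and BLNK (0.38), an adaptor of B cell receptor signalling. For NR2F2 they were ABHD16A (0.36) and S100A16 (0.39). PGR lay nearest to ATP5A1 (0.22), a subunit of the mitochondrial ATP synthase, and FHL3 (0.23). ESR1 lay nearest to the tetraspanin gene CD9 (0.13) and URM1 (0.16), and NR3C1 to CFLAR (0.16), an inhibitor of death receptor signalling, and ATF4 (0.20), a stress-induced transcription factor. PGRMC1 was not placed because its brightest probe lacks array 2, and with 4 arrays a small distance describes these hybridisations only.

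**Figure D5:**
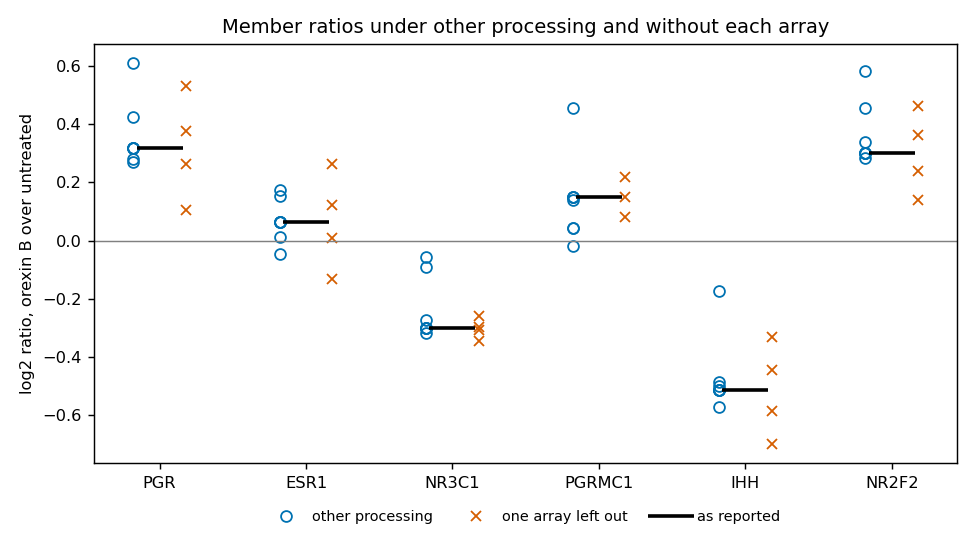
Log2 ratio of orexin B treated over untreated RNA for 6 member genes as reported (bars), under 8 other processing choices (open circles) and with each array left out (crosses). IHH and NR3C1 stay below 0 and PGR and NR2F2 above 0 in every setting shown, while ESR1 and PGRMC1 cross 0; PGRMC1 has 3 crosses because it could not be fitted without array 4. Dropping the dye term or changing the filter cannot move the ratio of a probe with a value on every array.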

How the data were processed

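The deposited spot intensities are medians of pixels in each channel from Agilent Feature Extraction 10.7.3.1, per the file headers. Per the file headers they also hold the scanner's corrected log10 ratio, red over green. Over tested probes, the log2 value table deposited by the authors matched that ratio with a correlation of 1.00 on arrays 1 and 3. It ran opposite to the ratio on arrays 2 and 4, as the dye labels do. Over all non-control probes the correlations were 0.95, -0.96, 0.80 and -0.74 on arrays 1 to 4. The columns of the value table are not centred. The flags for background and outlier spots are 0 or 1 values, per the file headers.

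Median signals were used because mean signals are not among the columns here. They were corrected by normexp with an offset of 50, normalised by loess within arrays and averaged per probe after outlier spots were left out (limma 3.58.1, R 4.3.3). The fit had a treatment and a dye term, 2 residual and 5.09 prior degrees of freedom, and Benjamini-Hochberg adjustment over all fitted probes; 2 of the 13783 tested probes had values in 1 dye orientation and could not be fitted. It was tested on simulated data. Symbols came from RefSeq accessions (Sscrofa11.1), without coordinates. A gene is represented by its brightest tested probe. Named genes are the members, the 4 genes of each list with the smallest p, and the 2 nearest genes of each member, of which 1 list gene is not reported here; FKBP4, PGRMC2, HSPA8, MSX1, SGK1, KLF15 and the marker genes were named after their values were seen. The number of arrays limits the precision. Members and lists were chosen with earlier results of these data known. Alternatives were median centring, the authors' table, no background correction, no dye term, one dye orientation, other filters, probe means and leaving out each array.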

Additional observations from a re-analysis of the deposited data

Results flagged for a closer look

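Of 60 sets of 4 array values examined, 3 had 1 array far from the others, where chance alone gives about 3. In each it was array 1: the epithelial gene CLDN7 stood at 0.67, the endothelial gene ENG at 0.90 and the endothelial gene VWF at 0.88. No member of the steroid receptor set was among them.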

How the results depend on the processing

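Each array sets treated against untreated RNA, so the fit of its ratios is already paired by array. No pairing by gilt could be added, because the labels do not say which gilt supplied which array. In 12 other settings, IHH and NR3C1 kept a ratio below 0 and PGR and NR2F2 one above 0, and 0 member genes passed in any of them. Dropping the dye term or changing the filter could not move these ratios. Probe means could not move those of genes with 1 tested probe, and reading every array as treated in Cy5 returned the dye term. Only the remaining settings could therefore have changed a sign of the treatment ratio. ESR1 and PGRMC1 were below 0 in the authors' table (-0.045 and -0.018). Leaving out an array gave -0.13 (without array 1) to 0.26 for ESR1, and 0.083 to 0.22 for PGRMC1, which could not be fitted without array 4 because its probe then has values in 1 dye orientation. The receptor median was 0.11 as reported, 0.31 with median centring (0.03 against all probes), -0.032 in the authors' table, and -0.014 (without array 1) to 0.17 leaving out an array, with 0.0085 over 3 genes without array 4. Leaving out an array gave -0.70 to -0.33 for IHH, 0.14 to 0.46 for NR2F2, 0.11 to 0.53 for PGR, -0.34 to -0.26 for NR3C1, and 0.47 to 1.16 for NR2F2 minus IHH. Calls over all probes were 0 to 17, with 17 (14 higher) only without array 2. The causes were not tested. Signal over background limits ESR1 and IHH to 1 tested probe each and leaves ESR2 with none.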

Other observations

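Markers of other cells in the explants are given as values. The median ratio was -0.14 for 4 smooth muscle genes, -0.21 for 4 endothelial genes and -0.42 for 3 macrophage genes. It was -0.32 for the 2 T and NK cell genes tested, of 7 on the array. The 2 trophoblast genes tested, of 6 on the array, stood at 1.14 and -0.42, so their median of 0.36 describes neither. CDX2, a trophoblast factor, was above background in no channel. Read as treated in Cy5 throughout, which returns the dye terms, the macrophage median was 0.13 and the smooth muscle median 0.43. The endothelial median was then 0.06 and the T and NK cell median 0.33. The directions above thus rest on the dye labels, which the authors' value table also follows. Without array 3 the smooth muscle median was 0.04 and the endothelial median 0.13, each with 3 genes higher and 1 lower, and with median centring they were 0.16 and 0.13 (-0.12 and -0.15 against all probes).

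The trophoblast factor TFAP2C had the widest ratio of the marker genes tested, with 2.14, 0.41, 1.43 and 0.60 on arrays 1 to 4 and a fitted value of 1.14 ± 0.19 (n = 4 arrays; limma adjusted p = 0.999). It stood higher in treated RNA on 4 of 4 arrays, beside a dye term of 0.64. The other tested gene of that list, IL1B2, stood at -0.42 ± 0.18.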
